A study of Arabidopsis thaliana with 11 samples.

Results

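The flower arrays were set against the upper stem arrays of the same plant age, which are 8 of the 11 arrays of a tissue series of Arabidopsis thaliana. They were chosen by their titles, flower or stem. The flower group holds 4 arrays of developed flowers with unopened buds, and the stem group holds 4 arrays of the upper 2 inches of stem, freed of siliques and pedicels. Both organs came from Columbia-0 (Col-0) plants, a standard laboratory accession, at 29 days. Light was 125 umol per square metre and second for 16 h a day, at 25 C by day and 20 C by night. Within each organ, 2 titles carry the code GC and 2 the code GH, and all 8 descriptions name a controlled growth system, so the labels do not settle what the code stands for. The other 3 arrays, of rosette leaf at 15 days, entered the fit to share its estimate of spread. They also count in the dim limit and in the filter, so some genes called measured below are bright in leaf alone, and 15186 probe sets instead of 15718 were kept on the 8 arrays alone.

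A flower combines petals and sepals with stamens, whose anthers feed developing pollen from a nurse layer called the tapetum, and with carpels that enclose the ovules. The upper inflorescence stem still elongates and carries green cortex, and its xylem and fibres lay down thick walls of cellulose, xylan and lignin. Growing cells in both organs remodel xyloglucan and pectin in their primary walls.

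Each value is the deposited MAS5 signal of 1 probe set, a linear intensity, and levels of different probe sets are not compared. Signals under 28.1, the 40th percentile of all values, are called dim here. Arrays resembled each other more within an organ than between organs, with Pearson's r of log2 signals from 0.912 to 0.938 among flower arrays, from 0.878 to 0.923 among stem arrays and from 0.662 to 0.731 across them. The mean log2 3' over 5' ratio of control genes was 0.53, 0.53, 0.90 and 0.80 in flower, against 0.048, 0.013, 2.13 and 0.24 in stem (exact two-sided permutation p = 0.943 over 70 splits, where the smallest possible p is 0.0286). The array stem GH 1 stands apart, with an actin ratio of 19.6, and the p rests on it. The means were 0.69 in flower and 0.61 in stem, but the stem mean was 0.10 without stem GH 1, and then every flower array lay above every stem array. The labels do not say whether arrays of an organ came from separate plants, and the p-values cover only the spread among the arrays, part of which may be technical. In a mixed organ, fewer cells of a type and less RNA per cell cannot be told apart.

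Of 15718 probe sets kept, 4008 (25.5%) were higher in flower and 2413 (15.4%) were lower in flower by limma at an adjusted p under 0.05, 40.9% in all. Without stem GH 1 the counts were 4000 higher and 2519 lower. At least 2-fold, the counts were 2219 (14.1%) higher and 1231 (7.83%) lower. Called probe sets whose flower and stem arrays did not overlap numbered 3388 (21.6%) higher and 1962 (12.5%) lower. Genes named below for the largest changes were chosen among these, so for them the lack of overlap is a condition of the choice. The log2 fold change, flower over stem, had a median of 0.17 over all probe sets as deposited. Quantile normalization brought this median to -0.0099 and the split to 3171 higher and 2960 lower, and centring on the 75th percentile gave 0.024, with 3201 higher and 3060 lower. Probe sets bright on every flower array and dim on every stem array numbered 640 among the calls, against 101 for the reverse. Both counts used the signals as deposited and were not repeated after normalization. In those signals, 62.4% to 64.6% of probe sets lay above the dim limit on flower arrays, against 57.5% to 58.8% on stem arrays. How much of the imbalance between the counts rests on this difference was not tested. Unless stated otherwise, the counts of gene lists below are read against 25.5% and 15.4%. A gene bright in 1 organ passes the filter through that organ, so a list's counts describe its measured members alone. Since the lists share some genes, a gene can be counted in more than 1 of them. Members were matched by gene symbol or synonym, and plastid genes by their genome, while 8730 probe sets name no gene. In the lists, "on the array" therefore counts matched genes alone, and a family may have further probe sets that were not analysed.

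Most measured genes of the anther and of pollen were higher in flower, and several were dim on every stem array. ATA27, a beta-glucosidase of the tapetum and the flower marker with a named probe set, had signals of 937, 955, 1078 and 1082 in flower, against 2.098, 1.397, 17.01 and 5.35 in stem, in the order GC 1, GC 2, GH 1 and GH 2 used throughout. Every flower array lay far above every stem array, and all stem arrays were dim. Where an organ is dim on every array, the fold is a bound, computed with the signals of that organ raised to the dim limit and those of the other organ as deposited, and for ATA27 it was at least 35.98-fold (adjusted p = 3.92e-07). Further flower markers carry no name in the annotation and were not analysed here.

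All 4 measured genes of the anther and tapetum list, of 7 on the array, rose in flower. All 4 were dim on every stem array, so none passed the filter through stem, and their count is not set against the share of all probe sets. Without the filter, 4 of 7 were called higher. EMS1, the receptor kinase that specifies tapetal cells, had 144, 159, 140.4 and 108 in flower, against 4.701, 5.31, 5.93 and 24.2 in stem. The organs did not overlap, and the difference was at least 4.86-fold (adjusted p = 3.72e-05). SWEET8, a sugar transporter needed for pollen wall formation, had 164, 138, 177 and 104 in flower, against 22.5, 20.7, 15.1 and 14.98 in stem, at least 5.08-fold higher (adjusted p = 2.98e-06). The weakest was AMS, a transcription factor of the tapetum, which lay near the dim limit even in flower (33.1, 17.6, 33.6 and 37.96 in flower, against 12.9, 2.93, 3.37 and 3.98 in stem). It was at least 1.05-fold higher (adjusted p = 0.0410), and its call was lost in 12 alternatives, so that 3 of the 4 genes were then called. Among these were the replicate block (adjusted p = 0.0522), all signals floored at the dim limit (0.0766), quantile normalization (0.0690), centring (0.0529), either code alone and any 1 of 6 arrays left out (0.0742 to 0.103). The median log2 fold change of the 4 genes was 3.57, or 2.31 with dim genes at their bound, beside 0.17 over all probe sets.

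Of the pollen list, 12 of 21 genes were measured, and 8 rose while 2 fell in flower. Of the 12, 6 were dim on every stem array and could not pass the filter through stem. Their count is therefore not set against the share of all probe sets. Without the filter, 10 of 21 were called higher and 2 lower. PLIM2a, which bundles actin in pollen, had 324, 363, 342 and 251 in flower, against 2.03, 4.73, 2.51 and 1.91 in stem. Every stem array was far under the dim limit, and the difference was at least 11.3-fold (adjusted p = 3.49e-07). AtVEX1, a sugar transporter of the vegetative pollen cell, had 150.2, 153, 68.9 and 88.6 in flower, against 5.28, 22.4, 18.2 and 17.2 in stem, at least 3.87-fold higher (adjusted p = 0.000420). AGL18, a MADS-domain factor present in pollen, had 80.1, 104, 88.8 and 67.98 in flower, against 14.02, 19.01, 2.09 and 16.3 in stem, at least 2.996-fold higher (adjusted p = 0.000880). These 3 genes were bright on every flower array and dim on every stem array. ANX2, a receptor kinase that keeps pollen tubes intact, was named after its values were seen and had 40.1, 47.97, 39.7 and 38.6 in flower, against 0.851, 0.862, 1.85 and 6.902 in stem, at least 1.47-fold higher (adjusted p = 0.00219).

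The 2 genes of the pollen list that fell encode cytoskeletal proteins. The actin ACT11, which is also used outside pollen, had 213, 286, 322 and 354 in flower, against 631, 575, 885 and 605 in stem. Its log2 fold change was -1.20 ± 0.18 (SE, adjusted p = 0.000303). The beta-tubulin TUB9 had 591, 586, 562 and 632 in flower, against 1032, 1025, 1238 and 1029 in stem, a log2 fold change of -0.86 ± 0.11, adjusted p = 8.91e-05. For both genes every flower array lay below every stem array. The alpha-tubulin TUA1, chosen after its values were seen, went the other way with 188, 177, 190.2 and 193 in flower, against 122, 128, 122 and 121 in stem (0.60 ± 0.12, adjusted p = 0.00193). The median of the 12 measured genes was 0.998, or 0.58 with bounds. Without flower GC 2 or without stem GC 2 the count that rose was 5 instead of 8, and it was 4 with the GC arrays alone and 3 with the GH arrays alone.

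**Figure D1:**
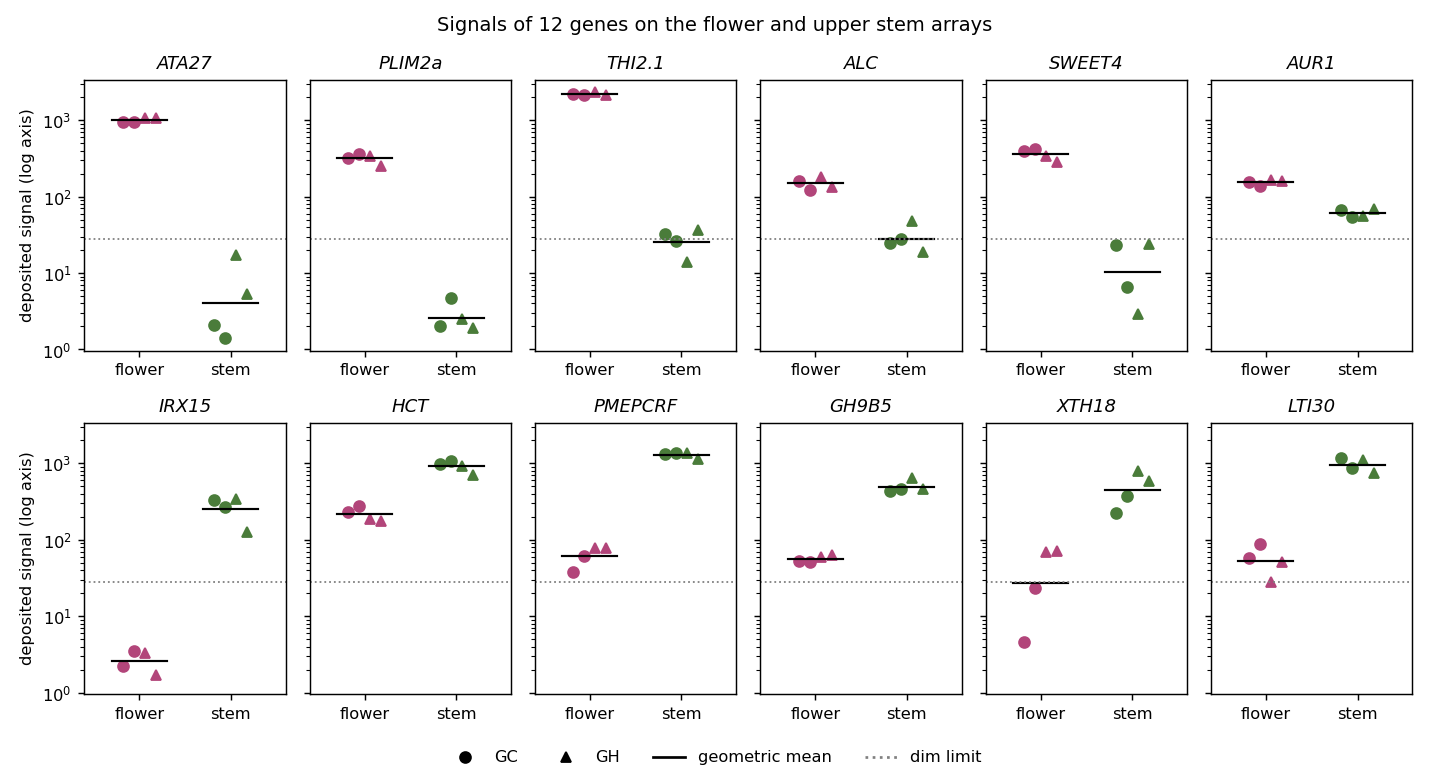
Deposited signal (log axis) of 12 genes on the 4 flower and 4 upper stem arrays, with circles for GC, triangles for GH, a bar at the geometric mean and a dotted line at the dim limit of 28.1. ATA27, PLIM2a and SWEET4 were dim on every stem array, IRX15 was dim on every flower array, and the organs did not overlap for any gene shown. For ATA27, IRX15, PMEPCRF, XTH18 and LTI30 this was a condition of their choice.

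Regulators of flower, carpel and ovule development were mostly higher in flower: of 22 on the array 14 were measured, 8 rose and 1 fell. Of the 14, 4 were dim on every stem array, and without the filter 8 of 22 were called higher and 1 lower. ALC and SPT, related bHLH factors of the carpel and fruit, both rose. ALC had 162, 123, 183 and 135 in flower, against 24.8, 28.3, 47.4 and 18.97 in stem (2.40 ± 0.27, adjusted p = 3.60e-05). SPT had 109.8, 133, 129.8 and 147 in flower, against 62.7, 47.8, 42.9 and 61.8 in stem (1.28 ± 0.19, adjusted p = 0.000319). In both genes the lowest flower array lay above the highest stem array. BPEp, a bHLH factor that limits petal cell size, had 124, 108, 88.1 and 89.1 in flower, against 3.14, 3.005, 2.38 and 0.963 in stem. It was dim on every stem array and at least 3.61-fold higher in flower (adjusted p = 0.000155). TSO1, which acts in floral meristem and organ development, had 144, 140.4, 182 and 157 in flower, against 71.6, 69.3, 51.2 and 97.6 in stem (1.14 ± 0.19, adjusted p = 0.000728).

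The regulator that fell was AGL24, a MADS-domain factor of the shoot apex and inflorescence meristem. Its signals were 21.2, 26.1, 28.5 and 19.7 in flower, against 72.5, 61.2, 66.3 and 104 in stem, so that flower lay under the dim limit on all but 1 array and stem above it on all (-1.65 ± 0.23, adjusted p = 0.000200). After their values were seen, 3 more regulators were picked out: NGA1 of style development, YAB3 of organ polarity and INO of the outer integument of the ovule. NGA1 had 59.7, 60.8, 71.1 and 71.1 in flower, against 3.37, 2.79, 2.56 and 3.59 in stem, at least 2.33-fold higher (adjusted p = 0.00184). YAB3 had 68.6, 80.3, 55.8 and 98.98 in flower, against 1.92, 22.7, 2.12 and 12.6 in stem, at least 2.64-fold higher (adjusted p = 0.00132). INO was near the limit in stem, with 64.97, 64.1, 51.04 and 65.3 in flower, against 27.3, 37.9, 26.7 and 19.9 in stem (1.16 ± 0.25, adjusted p = 0.00327). Over the 14 measured regulators the median log2 fold change was 1.15, or 0.92 with bounds.

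Of 9 cell division genes matched by symbol, all of them measured, 8 were higher in flower and none fell. A filter at the 60th percentile kept 5 of them, all called. AUR1, an aurora kinase of the mitotic spindle, had 154, 139.8, 164 and 162 in flower, against 66.8, 53.7, 55.3 and 68.8 in stem (1.35 ± 0.15, adjusted p = 4.33e-05). TOPII, the topoisomerase that untangles replicated DNA, had 111, 124, 135 and 113 in flower, against 49.6, 33.4, 27.4 and 24.9 in stem (1.88 ± 0.22, adjusted p = 5.65e-05). The histone H2B gene HTB1 had 275, 159.8, 354 and 368 in flower, against 75.1, 67.1, 95.8 and 92.4 in stem (1.75 ± 0.20, adjusted p = 3.73e-05). In all 3 genes both organ means were above the dim limit and no flower array overlapped with stem. PRL, a subunit of the replicative helicase, had a log2 fold change of 1.14 ± 0.21, and the aurora kinase AUR3 had 1.23 ± 0.24. The exception was the checkpoint kinase gene BUBR1, which did not pass, with 35.8, 22.7, 36.7 and 33.6 in flower, against 31.9, 32.2, 75.2 and 51.9 in stem (-0.50 ± 0.48, adjusted p = 0.432). The median of the 9 genes was 1.35, and the mean log2 signal of the list was 6.42, 6.25, 6.64 and 6.49 in flower, against 5.27, 5.04, 5.12 and 5.37 in stem.

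SWEET proteins, which let sugars pass membranes down their gradient, differed widely as a family. All 16 measured genes of the sugar transport list, of 17 on the array, are SWEETs (AtVEX1 is SWEET5 and SAG29 is SWEET15), and 11 rose while 2 fell in flower. Of the 16, 6 were dim on every stem array and could not pass the filter through stem. The family's count is therefore not set against the share of all probe sets. Without the filter, 11 of 17 were called higher and 2 lower. SWEET4 had 399, 426, 339 and 282 in flower, against 23.02, 6.62, 2.91 and 24.3 in stem. It was dim on every stem array and at least 12.7-fold higher in flower (adjusted p = 3.10e-05). SWEET9, the sucrose exporter of nectaries, had 311, 293, 240.0 and 255 in flower, against 37.7, 23.4, 23.7 and 23.99 in stem (3.36 ± 0.21, adjusted p = 4.66e-07). SWEET1, a glucose transporter, had 987, 845, 663 and 551 in flower, against 191, 147, 123 and 130.4 in stem (2.35 ± 0.26, adjusted p = 3.23e-05). SWEET13, a sucrose transporter expressed in anthers, had 109, 112, 90.5 and 104 in flower, against 33.7, 25.3, 25.7 and 35.1 in stem (1.81 ± 0.20, adjusted p = 3.37e-05). No stem array reached the lowest flower array for any of these genes.

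The following SWEET genes were named after their values were seen. SWEET10 had 189.9, 175, 159 and 164 in flower, against 20.22, 2.68, 34.9 and 18.8 in stem (3.64 ± 0.71, adjusted p = 0.00176), and SWEET14 had 109.5, 116, 102 and 104 in flower, against 26.5, 7.87, 21.98 and 2.59 in stem, at least 3.83-fold higher (adjusted p = 0.00158). The genes that fell were SWEET16 and SWEET17, which encode transporters of the vacuolar membrane. SWEET16 had 27.1, 16.2, 40.8 and 32.3 in flower, against 94.3, 102, 85.6 and 69.1 in stem (-1.66 ± 0.31, adjusted p = 0.00137), and SWEET17 had 269.7, 334, 401 and 529 in flower, against 476, 992, 735 and 816 in stem (-0.97 ± 0.21, adjusted p = 0.00309). SWEET17 overlapped between the organs on 1 array each and SWEET16 did not overlap. SWEET11, a phloem-loading sucrose exporter, did not pass, with 213, 229.6, 119 and 193 in flower, against 134, 149.9, 204 and 156 in stem (0.20 ± 0.21, adjusted p = 0.467). The family's median was 2.37, or 1.84 with bounds, and the count that rose was 11 without each array in turn.

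**Figure D2:**
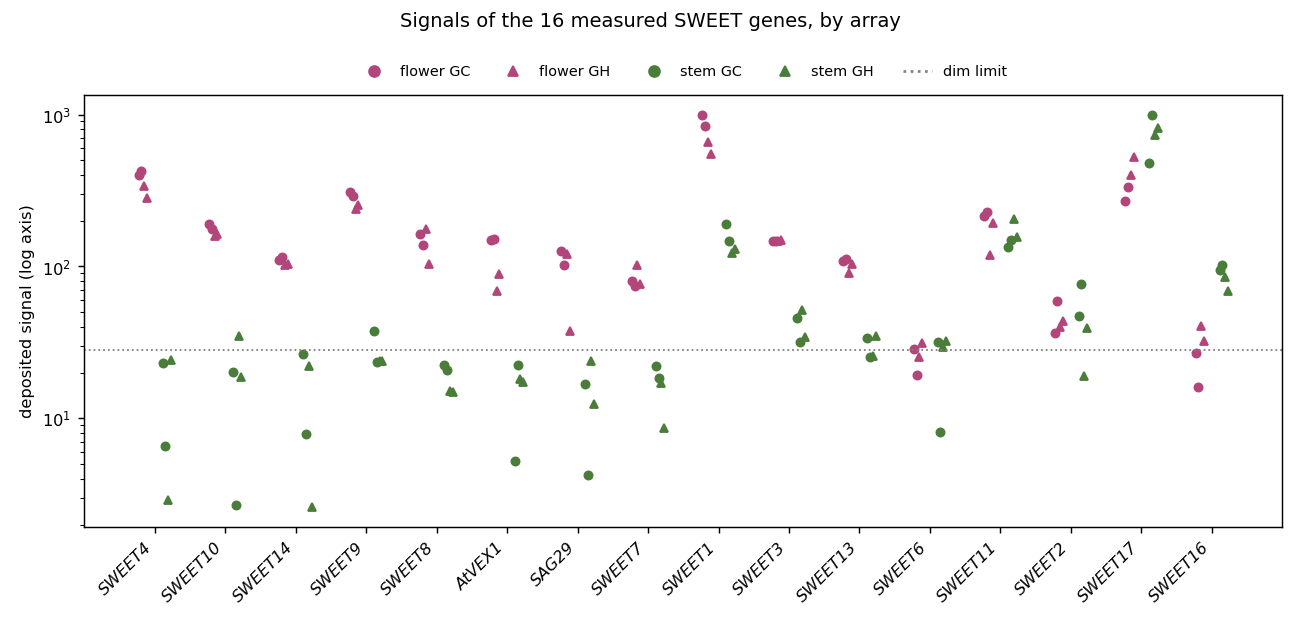
Deposited signal (log axis) of the 16 measured SWEET genes on each array, flower left of stem within a gene, ordered by fitted fold change, with the dim limit dotted. SWEET4 to SWEET13 lay higher on every flower array, SWEET16 and SWEET17 averaged lower in flower, and SWEET6, SWEET11 and SWEET2 overlapped.

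Small secreted peptides included some of the largest changes. THI2.1, a thionin with antimicrobial activity, had 2194, 2161, 2338 and 2166 in flower, against 32.03, 26.2, 13.8 and 36.8 in stem (6.44 ± 0.26, adjusted p = 2.36e-08). The defensin-like LCR genes LCR69, LCR72 and LCR66 also rose. LCR69 had 2092, 2709, 2169.7 and 2183 in flower, against 192, 203, 629 and 512 in stem (2.77 ± 0.36, adjusted p = 0.000121), with both stem GH arrays above both stem GC arrays. LCR72 had 215, 318, 208 and 153 in flower, against 20.9, 26.6, 13.95 and 12.2 in stem, at least 7.69-fold higher (adjusted p = 2.07e-05). LCR66 had 138, 111, 224 and 59.2 in flower, against 0.945, 1.27, 0.756 and 5.47 in stem, at least 4.25-fold higher (adjusted p = 0.000321). These were the 4 of 8 measured peptides in the list, of 15 on the array, that passed. THI2.2, PDF1.2 and PDF1.2b did not and were dim on every flower and stem array, having passed the filter through leaf. LCR68 was bright in both organs and did not pass (0.50 ± 0.19, adjusted p = 0.0545). On the 8 flower and stem arrays alone 5 peptides were measured and all 5 were higher, with a median of 3.62 instead of 1.80. There a peptide dim on every stem array could be kept only through flower, so the filter itself favours peptides higher in flower. Without the filter 4 of 15 were called higher, with a median of 0.57. LCR68 passed in 6 alternatives, among them quantile normalization (adjusted p = 0.0115).

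The RALF-like peptides, signals that alkalinise the cell wall space, moved both ways: of 8 measured and 11 on the array, 3 rose and 3 fell. RALFL26 had 175, 243, 239 and 138 in flower, against 2.68, 1.405, 4.32 and 2.804 in stem, at least 6.89-fold higher (adjusted p = 1.15e-06). RALFL25 had 245, 404, 218 and 232 in flower, against 9.73, 19.01, 11.05 and 6.39 in stem, at least 9.47-fold higher (adjusted p = 5.09e-06). Both were dim on every stem array. RALFL34 rose with both organs bright (0.75 ± 0.13, adjusted p = 0.000891). RALFL22 fell, with 69.99, 205, 197 and 183 in flower, against 446, 666, 752 and 456 in stem (-1.91 ± 0.32, adjusted p = 0.000657), and RALFL24 fell as well (-0.65 ± 0.14, adjusted p = 0.00339). The fall of RALFL33 (-0.92 ± 0.31, adjusted p = 0.0355) was lost without any 1 of 5 arrays, with adjusted p = 0.0531 to 0.0918. It was also lost with quantile normalization (0.0647), without the mean-variance trend (0.0604), and with the GC (0.0583) or GH arrays alone (0.187). RALFL31 and RALFL32 did not pass (0.15 ± 0.17 and -0.44 ± 0.19). RALFL32 fell with quantile normalization and with centring.

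Among the serine carboxypeptidase-like genes, a family of hydrolases and acyltransferases, 20 of 29 were measured. Of these, 9 rose and 3 fell, beside 25.5% and 15.4% of all probe sets, so the count that fell lies near its share. SCPL43 had 214, 254, 157 and 175 in flower, against 20.9, 28.1, 33.6 and 33.6 in stem (2.78 ± 0.23, adjusted p = 4.71e-06). The gene scpl35 had 409.5, 437, 299.7 and 366 in flower, against 156, 160.5, 125 and 152 in stem (1.34 ± 0.13, adjusted p = 1.29e-05), and scpl25 had 586, 514, 623 and 660.5 in flower, against 251, 171, 269 and 279 in stem (1.32 ± 0.14, adjusted p = 3.11e-05). In these 3 genes flower exceeded stem on every array. The gene scpl38 was dim on every stem array and at least 2.705-fold higher (adjusted p = 0.000243). The median of the 20 genes was 0.62, or 0.33 with bounds.

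On the stem side, genes of secondary wall xylan and lignin were lower in flower: of 8 on the array 6 were measured, 5 fell and 1 rose. IRX15, which is needed for normal xylan chain length and is the stem marker with a named probe set, had 2.24, 3.46, 3.27 and 1.71 in flower, against 335, 271, 340.3 and 129 in stem. Every flower array was far under the dim limit while every stem array was bright, a difference of at least 8.93-fold (adjusted p = 1.36e-06). Its homologue IRX15-L had 49.6, 39.2, 29.1 and 15.3 in flower, against 664, 559, 431 and 355 in stem (-4.001 ± 0.68, adjusted p = 0.000701). GUT2, a xylan backbone synthesis gene, had 60.5, 61.3, 53.1 and 61.2 in flower, against 638, 595, 203 and 252 in stem (-2.66 ± 0.26, adjusted p = 1.33e-05), with both stem GC arrays above both stem GH arrays. HCT, an acyltransferase on the path to lignin monomers, had 232, 279.9, 190.0 and 177 in flower, against 986, 1078, 935 and 712 in stem (-2.08 ± 0.15, adjusted p = 1.36e-06). The organs did not overlap for any of these genes.

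GUT1, a paralogue of GUT2, also fell, with 123, 112, 129 and 132 in flower, against 196, 185, 238 and 174 in stem (-0.67 ± 0.14, adjusted p = 0.00269). The member that rose was PRX52, a peroxidase linked to lignin, which was dim in stem on all but 1 array (0.96 ± 0.27, adjusted p = 0.0127). Quantile normalization ended that call (adjusted p = 0.0797), as did the GC arrays alone and the GH arrays alone. The list's median was -2.37. BGLU45, a beta-glucosidase of monolignol glucosides, was dim on every flower array and at least 4.55-fold lower in flower (adjusted p = 0.00263), with 4.38, 15.5, 13.7 and 16.4 in flower, against 154, 234, 91.9 and 80.8 in stem. Further stem markers carry no name in the annotation and were not analysed here. Of 4 vascular regulators, LHW of vascular patterning rose with 116, 134, 158 and 102 in flower, against 50.5, 48.1, 44.98 and 74.2 in stem (1.24 ± 0.20, adjusted p = 0.000532). CLE44 had 0.46 ± 0.17 (adjusted p = 0.0428) and lost its call in 13 alternatives, among them the replicate block (0.0519), quantile normalization (0.301), either code alone and 6 of the 8 fits without an array (0.0613 to 0.124), while PHV and CLE41 did not pass (0.011 ± 0.22 and 0.057 ± 0.14).

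Pectin methylesterases, which trim methyl groups from wall pectin, gave the largest falls among named genes with a symbol and both organ means above the limit. PME61 had 47.9, 20.06, 22.97 and 35.1 in flower, against 1052, 821, 431 and 428 in stem (-4.41 ± 0.31, adjusted p = 1.35e-06). PMEPCRF had 37.6, 61.1, 78.4 and 78.7 in flower, against 1309, 1369.9, 1379.7 and 1136 in stem (-4.40 ± 0.20, adjusted p = 3.62e-08). The signals of PMEPCRF were even within stem, while PME61 was higher on the stem GC arrays than on the stem GH arrays. ATPMEPCRD was dim on every flower array and at least 3.77-fold lower in flower (adjusted p = 0.000400). AT59, a pectate lyase-like gene of pollen, went the other way with 99.5, 161, 107 and 59.4 in flower, against 2.87, 18.4, 2.61 and 3.701 in stem, at least 3.57-fold higher (adjusted p = 0.000246). ATPMEPCRB did not pass (-0.79 ± 0.48, adjusted p = 0.216). These are the 5 measured genes of 7, of which 3 fell and 1 rose.

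Xyloglucan endotransglucosylases cut and rejoin the xyloglucan that ties cellulose together, and 4 of 8 measured genes, of 10 on the array, fell while none rose. XTH18 had 4.59, 23.5, 70.1 and 71.3 in flower, against 225, 375, 801 and 597 in stem (-4.05 ± 0.48, adjusted p = 5.63e-05), and in both organs its GC arrays lay below its GH arrays. XTH33 had 26.9, 25.9, 24.1 and 61.5 in flower, against 169, 155, 285 and 223 in stem (-2.66 ± 0.33, adjusted p = 7.66e-05). XTH32 had 258, 208, 312 and 260.0 in flower, against 765, 809, 348 and 817 in stem (-1.34 ± 0.33, adjusted p = 0.00730), with stem GH 1 at less than the other stem arrays. EXGT-A3 fell as well (-1.10 ± 0.30, adjusted p = 0.0111). XTH19 had organs that did not overlap but missed the threshold (-1.56 ± 0.61, adjusted p = 0.0593), which it passed under 7 alternatives, quantile normalization and centring among them. XTH16, XTH20 and XTH29 did not pass (-0.33 ± 0.41, -0.54 ± 0.53 and 0.36 ± 0.56). The median of the list was -1.22.

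Expansins loosen walls, and 12 of 19 on the array were measured. Of these, 3 were higher and 5 lower in flower, beside 25.5% and 15.4% of all probe sets, so the count that was higher lies near its share. The expansin-like A genes were lower. EXLA1 had 224, 483, 686 and 899.9 in flower, against 1897, 2331, 4278 and 1931 in stem (-2.27 ± 0.36, adjusted p = 0.000402). EXLA2 had 65.2, 255, 421 and 213 in flower, against 998, 1208, 556 and 758 in stem (-2.10 ± 0.48, adjusted p = 0.00434). EXLA3 had 2.54, 13.7, 29.5 and 32.99 in flower, against 202, 324, 529.6 and 180.3 in stem (-4.37 ± 0.67, adjusted p = 0.000352). In each of these 3 genes flower GC 1 was the lowest of all arrays. The alpha-expansin EXPA4 rose, with 241, 169, 183 and 133 in flower, against 88.2, 47.9, 47.5 and 81.9 in stem (1.48 ± 0.28, adjusted p = 0.00136), and EXPB5 was at least 1.86-fold higher (adjusted p = 0.00114). The median of 0.27 for the family turned to -0.011 with quantile normalization. Without 1 array the counts ran from 2 to 5 higher and 3 to 5 lower, with 5 higher without stem GH 2 and 3 lower without flower GC 1, flower GC 2, flower GH 1 or stem GC 1.

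The GH9 endoglucanases, which cut beta-glucan chains, and the TBL family of wall acetyltransferases were tallied together, with 26 of 39 probe sets measured. Of these, 6 were higher and 9 lower in flower, beside 25.5% and 15.4% of all probe sets, so the count that was higher lies near its share. GH9B5 had 52.7, 51.5, 59.5 and 62.9 in flower, against 436, 458, 654 and 461 in stem (-3.13 ± 0.15, adjusted p = 4.98e-08). TBL38 had 129, 156, 134 and 127 in flower, against 745, 560.5, 749 and 534 in stem (-2.24 ± 0.15, adjusted p = 9.00e-07). GH9B7 had 555, 525, 643 and 655 in flower, against 1609.6, 1511, 1567 and 1508 in stem (-1.39 ± 0.11, adjusted p = 2.60e-06), and TBL37 had 79.5, 83.4, 92.6 and 103 in flower, against 385, 300.0, 277 and 209.6 in stem (-1.68 ± 0.22, adjusted p = 0.000101). All 4 were measured in both organs, and no arrays overlapped. Named after their values were seen, TBL26 rose with 353, 224, 434 and 209.6 in flower, against 23.9, 26.6, 10.5 and 31.97 in stem (3.76 ± 0.65, adjusted p = 0.000744), and GH9B13 rose with 866, 683, 885 and 753 in flower, against 301, 139.7, 351 and 289 in stem (1.63 ± 0.24, adjusted p = 0.000254). The median over the 26 probe sets was -0.34.

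**Figure D3:**
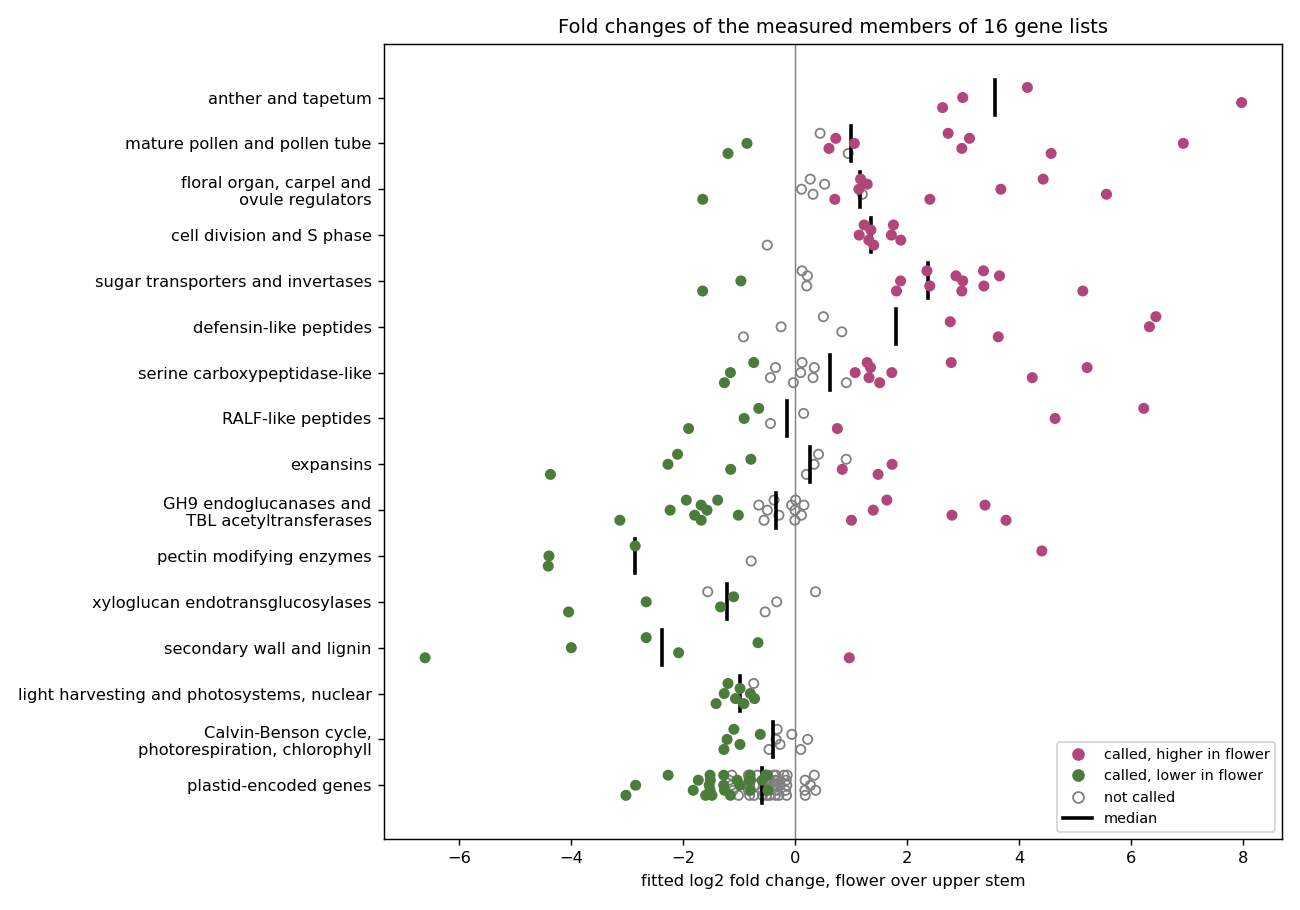
Fitted log2 fold change, flower over upper stem (horizontal axis), of each measured member of 16 gene lists, with filled points for calls, open points for genes not called and a bar at the list median. Medians ran from 3.57 for the anther and tapetum to -2.86 for pectin modifying enzymes, and the points of genes dim in 1 organ are fitted values, not bounds.

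Photosynthesis genes of the nucleus were lower in flower. In the list of light harvesting and photosystem genes, 8 of 9, all measured, fell and none rose. LHCB4.2, an antenna protein of photosystem II, had 750.5, 606, 542 and 429.9 in flower, against 1773, 1947, 1361 and 1142 in stem (-1.42 ± 0.13, adjusted p = 9.64e-06). PSAE-1, a subunit of photosystem I, had 1696, 1736, 1402 and 1314 in flower, against 3686, 3897, 4017 and 3184 in stem (-1.27 ± 0.12, adjusted p = 1.03e-05). LHCB4.1, a second copy of that antenna protein, had 2338, 3218, 1918 and 2044 in flower, against 5165, 5193, 7222 and 4284 in stem (-1.20 ± 0.19, adjusted p = 0.000398). Flower lay below stem on every array for these genes. PSBY and PSAN had log2 fold changes of -1.07 ± 0.16 and -0.99 ± 0.13. LHCB4.3 missed the threshold (-0.74 ± 0.28, adjusted p = 0.0501). The list mean of log2 signals was 10.04, 10.003, 9.83 and 9.63 in flower, against 10.88, 10.90, 11.08 and 10.71 in stem.

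Of 12 genes of carbon fixation, photorespiration and chlorophyll synthesis, all measured, 5 were lower in flower and none higher. RCA, the Rubisco activase, had 2169, 2815, 2021 and 1486 in flower, against 4509, 4367, 6228 and 4395 in stem (-1.22 ± 0.20, adjusted p = 0.000470). HPR, the hydroxypyruvate reductase of photorespiration, had 659, 711, 829 and 626 in flower, against 1484, 1458, 2548 and 1516 in stem (-1.28 ± 0.17, adjusted p = 0.000120). SBPASE and PRK, enzymes that regenerate the acceptor of carbon dioxide, had -1.10 ± 0.19 and -0.99 ± 0.15. In RCA and HPR the highest stem signal was on stem GH 1. PORB, a protochlorophyllide reductase, fell (-0.63 ± 0.20, adjusted p = 0.0245), and this call failed under quantile normalization (adjusted p = 0.0898) and without any 1 of 5 arrays (0.0555 to 0.0834). The call also failed without the title code (0.124) and with the GH arrays alone (0.136). The other 7, all in chlorophyll synthesis, did not pass, and with centring 9 of the 12 were lower in flower. The list's median was -0.41.

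Of 69 genes encoded in the plastid, all measured, 25 were lower in flower and none higher, with a median of -0.59. The subunits ndhF and ndhG of the plastid NDH complex differed most. ndhF had 26.6, 16.8, 41.2 and 27.1 in flower, against 201, 299, 292 and 125 in stem (-3.02 ± 0.34, adjusted p = 4.14e-05). ndhG had 66.4, 72.8, 67.7 and 110.3 in flower, against 650.0, 748, 878 and 229.9 in stem (-2.85 ± 0.46, adjusted p = 0.000467). In both genes stem GH 2 was the lowest stem array, and it was still above flower. petN of the cytochrome b6f complex had -1.73 ± 0.28 and atpE of the ATP synthase -0.80 ± 0.15. Quantile normalization ended the call of atpE (log2 fold change -0.23, adjusted p = 0.105 by limma). The GH arrays alone ended those of ndhG, petN and atpE (adjusted p = 0.0510, 0.0669 and 0.0599). Named after their values were seen, rbcL, the large subunit of Rubisco, and psbA, which encodes the D1 protein, did not pass (-0.29 ± 0.23, adjusted p = 0.331 for rbcL and -0.15 ± 0.41, adjusted p = 0.800 for psbA).

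The list mean of the plastid genes was 9.14, 8.57, 8.56 and 9.15 in flower, against 9.78, 9.83, 9.15 and 9.69 in stem, so that stem GH 1, the array with the highest 3' over 5' ratio, was level with the highest flower arrays. Without stem GH 1, 30 genes were lower in flower, and without flower GC 2, flower GH 1 or either stem GC array 16 or 17 were. The GC arrays alone gave 37 and the GH arrays alone 2. Quantile normalization left 16 lower and 1 higher. A covariate for the 3' over 5' ratio gave 28 lower and 2 higher.

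**Figure D4:**
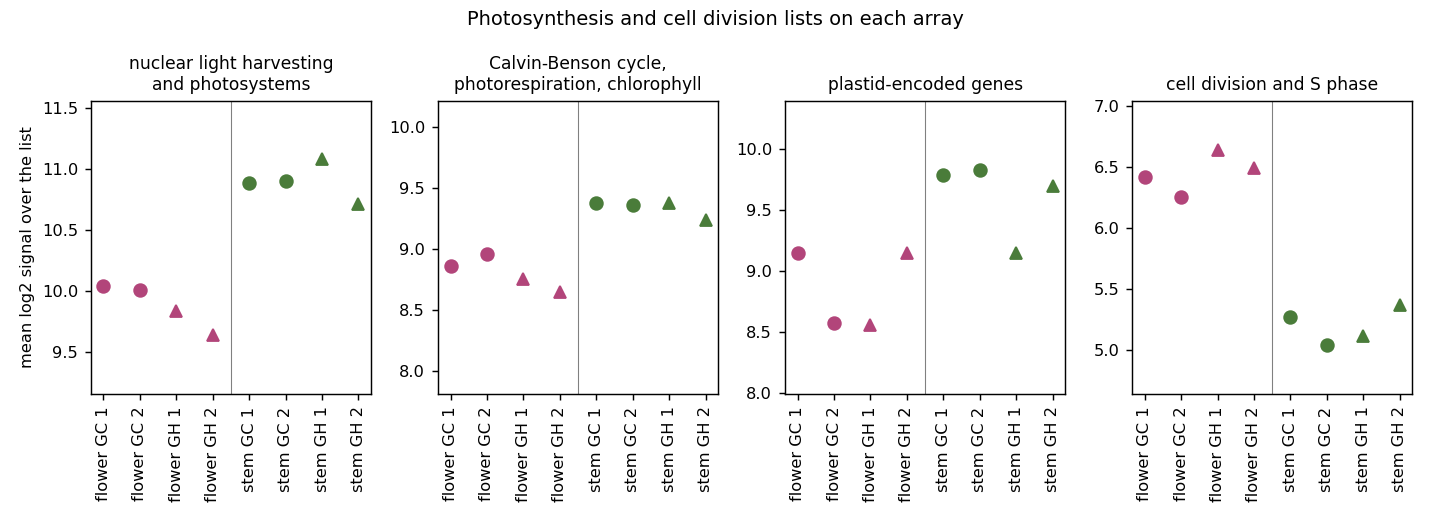
Mean log2 signal over the members of 4 gene lists (vertical axes of equal span) on each flower and upper stem array, circles for GC and triangles for GH. The nuclear photosynthesis lists lay lower on every flower array, the cell division list lay higher on every flower array, and the plastid-encoded list had stem GH 1 level with the highest flower arrays at 9.15.

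Cold and drought genes did not move together: LTI30 and COR47, which encode dehydrins, fell and COR15A, a chloroplast protein of cold acclimation, rose. LTI30 had 58.7, 88.3, 27.8 and 51.2 in flower, against 1176, 868, 1097 and 760.5 in stem (-4.20 ± 0.26, adjusted p = 5.09e-07). COR47 had 1287, 1479.9, 898 and 1189 in flower, against 3358, 3127, 3368 and 2890.1 in stem (-1.41 ± 0.13, adjusted p = 1.23e-05). COR15A had 821, 742, 900.2 and 841 in flower, against 279, 90.5, 192 and 222 in stem (2.19 ± 0.30, adjusted p = 0.000177). The organs did not overlap for any of them, and COR15B, a paralogue of COR15A, did not pass (-0.36 ± 0.23, adjusted p = 0.233). Of 5 heat shock and chaperone genes, Hsp70-2 rose with 362, 355, 258 and 155 in flower, against 137, 128, 68.5 and 65.97 in stem (1.51 ± 0.25, adjusted p = 0.000615), and the others (AT5G48570, ATHSP22.0, Hop3 and HSA32) did not pass. In seed storage and oil bodies, the gene named LEA was the measured one of 2, at least 3.14-fold higher in flower (adjusted p = 0.00114), with 88.9, 115, 69.2 and 85.5 in flower, against 2.67, 1.98, 12.4 and 2.16 in stem. Storage protein markers of seed were not analysed here.

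Of 5 measured glucosinolate genes, 3 fell and 1 rose. BCAT4, an aminotransferase of methionine chain elongation, had 36.4, 60.3, 104 and 65.4 in flower, against 229, 184, 575 and 276 in stem (-2.20 ± 0.27, adjusted p = 6.65e-05). GTR1, a glucosinolate transporter, had 222, 294, 307 and 259.5 in flower, against 1254, 679, 718 and 348 in stem (-1.34 ± 0.29, adjusted p = 0.00298), and its paralogue GTR2 did not pass (0.18 ± 0.25, adjusted p = 0.607). AOP1 rose (1.43 ± 0.17, adjusted p = 7.18e-05), and UGT74B1 fell at the edge of the threshold (-0.62 ± 0.23, adjusted p = 0.0489), a call lost in 12 alternatives. In the flavonoid list, UGT78D1, a flavonol rhamnosyltransferase, and CHIL, a chalcone isomerase-like protein, rose (2.001 ± 0.30 and 2.12 ± 0.49), while DFR and UGT78D2 did not pass (0.38 ± 0.23 and 0.25 ± 0.47). UGT78D2 passed without flower GH 2 (log2 fold change 0.90, adjusted p = 0.00408) and with the GC arrays alone.

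Hormone lists were thinly covered. JMT, which methylates jasmonate, had 71.1, 26.3, 59.5 and 34.4 in flower, against 4.69, 3.06, 1.44 and 2.09 in stem, at least 1.57-fold higher in flower (adjusted p = 0.000193). OPCL1 of jasmonate synthesis was lower (-1.01 ± 0.37, adjusted p = 0.0481), a call lost in 12 alternatives. Among 6 measured auxin genes, the amide synthases GH3.17 and WES1 rose, WES1 with 1.11 ± 0.23, adjusted p = 0.00255, and GH3.17 was dim on every stem array and at least 2.46-fold higher (adjusted p = 0.000260). None of 5 measured gibberellin and brassinosteroid genes (BRL1, GID1C, GID1A, BIM1 and SLY1) passed by limma, with adjusted p = 0.0888 or above, while SLY1 and BRL1 passed in 2 alternatives each. Of 4 wax and cutin genes WSD1, a wax ester synthase, rose (0.95 ± 0.30, adjusted p = 0.0258), which was lost in 8 alternatives, and RST1, SHN3 and AT4G13840 did not pass. Among 17 measured tetraspanin and ATG8 genes 3 rose and 6 fell, led by the autophagy gene ATG8B with 195, 285, 254 and 219.9 in flower, against 69.3, 71.3, 106 and 78.6 in stem (1.56 ± 0.17, adjusted p = 3.43e-05) and the tetraspanin TET3 with 143, 162, 175 and 125 in flower, against 315, 417, 415 and 260.5 in stem (-1.20 ± 0.19, adjusted p = 0.000426). None of the 6 meiosis genes matched by symbol passed the filter.

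Most probe sets of the largest differences carry only a locus tag, with no role in the annotation used here. AT2G20870 had 4743, 4081, 4174 and 5062 in flower, against 36.2, 26.2, 24.5 and 43.3 in stem (7.15 ± 0.36, adjusted p = 8.82e-08), the largest rise among probe sets of 1 gene with both means above the limit. AT1G68875 had 1522, 1902, 1409 and 1612 in flower, against 1.199, 7.21, 8.82 and 0.574 in stem, at least 56.99-fold higher in flower (adjusted p = 5.41e-06). AT1G80170 had 32.9, 39.9, 42.96 and 9.097 in flower, against 780.3, 1166, 814 and 626 in stem (-4.95 ± 0.42, adjusted p = 5.85e-06), and AT1G22480 had 3.79, 3.22, 10.8 and 4.31 in flower, against 1556, 1793, 1469.8 and 1180.0 in stem, at least 52.8-fold lower in flower (adjusted p = 4.04e-08). That the organs did not overlap in these 4 genes was a condition of their choice. Of the rest that rose, AT2G04570, AT5G50030, AT1G54020, AT5G45960, AT2G28790 and AT1G06000 had log2 fold changes of 4.83 to 3.35, and AT4G23680, AT2G47050, AT3G07820, AT5G45880 and AT3G28830 were at least 26.7-fold to 47.6-fold higher. GILT, a thiol reductase-family gene, had 1264, 1220.1, 1288 and 574 in flower, against 253, 93.4, 16.04 and 34.3 in stem (4.10 ± 0.63, adjusted p = 0.000360). Of the rest that fell, AT5G05960 and AT2G03200 had -4.38 ± 0.26 and -3.91 ± 0.41, and AT3G23090, AT4G08160, AT1G33700 and AT1G79620 were at least 4.26-fold to 15.6-fold lower.

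Whether the organ difference itself changed with the title code was tested with an interaction term. By limma 0 of 15718 probe sets (0%) passed an adjusted p under 0.05, and 761 had an unadjusted p under 0.05. Without the mean-variance trend 4 passed, and without stem GH 2 210 passed. The list members with the lowest unadjusted p were LCR69 and GUT2. LCR69 had a log2 fold change of 1.94 on the GH arrays and 3.59 on the GC arrays (adjusted p = 0.218), and GUT2 had -1.99 and -3.34 (adjusted p = 0.932). Both were chosen for these values.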

How the data were processed

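RNA of Arabidopsis organs was hybridised to ATH1 arrays. The deposited table gives an intensity per probe set and array, computed with MAS5 per the submitters' processing notes, and neither its version nor its scaling target is stated there. The number of arrays limits the precision. Signals were taken to log2. Probe sets above the 40th percentile of all values (28.1) on 3 or more of the 11 arrays were kept, 15718 of 22810, of which 8583 name 1 gene in the platform annotation. Symbols were kept as the platform annotation gives them, and the RefSeq symbol was used where it gives only a locus tag. RefSeq held 13436 of the 13513 probe sets on the array that name 1 gene. The model (lmFit, and eBayes with a trend, of limma 3.58.1 in R 4.3.3) used all 11 arrays with organ and title code as terms, and p-values were adjusted by the Benjamini-Hochberg method over all probe sets kept. The value after ± is the SE of a log2 fold change. The fit was tested on simulated data.

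Genes were named by a rule. Among called probe sets of 1 gene whose organs do not overlap, and per direction, these were the 8 with the largest fold change when neither organ mean was dim, and the 7 brightest when the opposite organ was dim throughout. Each list gave its 5 measured members of lowest adjusted p, or all members where 8 or fewer were measured. The comparison, the lists and the rule were chosen with earlier results of these data known. Lists of arabinogalactan proteins, lipid transfer proteins, cytosolic ribosomal proteins and aquaporins matched no named probe set. Alternatives were other normalizations, filters, pseudocounts, covariates, subsets of arrays and each array left out.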

Additional observations from a re-analysis of the deposited data

Results flagged for a closer look

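For each named gene, the 4 arrays of an organ were examined for a value that stood apart. A value was listed where its gap to the nearest other array took up most of the organ's log2 range, past Dixon's 95% critical value. Chance lists about 1 in 20 such groups, and 33 values were listed among 378 groups from 189 probe sets and the RNA quality measure. Stem GH 1 gave 11 of them, flower GH 2 gave 5, flower GH 1 gave 4 and the remaining arrays gave 2 or 3 each. One of those on stem GH 1 is RNA quality, with a mean log2 3' over 5' ratio of 2.13, while the other 3 stem arrays had 0.013 to 0.24. On flower GC 1, the signals below the other 3 flower arrays were 4.38 for BGLU45, 69.99 for RALFL22 and 22.7 for XTH19. On flower GC 2, the signal above the other 3 flower arrays was 2709 for LCR69, and the signal below the other 3 flower arrays was 6.49 for ATPMEPCRD. On flower GH 1, the signal above the other 3 flower arrays was 658 for LCR68, and the signals below the other 3 flower arrays were 53.1 for GUT2, 36.2 for GH3.3 and 51.04 for INO. On flower GH 2, the signal above the other 3 flower arrays was 61.5 for XTH33, and the signals below the other 3 flower arrays were 574 for GILT, 644 for RALFL34, 15.8 for UGT78D2 and 1.83 for AT4G13840. On stem GC 1, the signals above the other 3 stem arrays were 37.7 for SWEET9 and 108 for 3xHMG-box2, and the signal below the other 3 stem arrays was 7.24 for GH3.3. On stem GC 2, the signals below the other 3 stem arrays were 5.59 for AT1G54020 and 68.5 for SHN3. On stem GH 1, the signals above the other 3 stem arrays were 43.2 for AT5G50030, 654 for GH9B5, 1238 for TUB9, 2548 for HPR, 6228 for RCA, 57.9 for UGT78D1 and 12.4 for LEA, and the signals below the other 3 stem arrays were 3.55 for AT5G45960, 2.09 for AGL18 and 348 for XTH32. On stem GH 2, the signal above the other 3 stem arrays was 24.2 for EMS1, and the signals below the other 3 stem arrays were 2.37 for PDF1.2 and 53.9 for ATPMEPCRD. The part that the RNA of stem GH 1 has in its values was not tested.

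The fold change had opposite signs under the 2 title codes, with every array on its own side, for CLE41 and for ATHSP22.0. The difference of the flower over stem log2 fold change, GH minus GC, was 0.45 for CLE41, whose values were 0.28 on GH arrays and -0.17 on GC arrays. For ATHSP22.0 the difference was -1.73, with -0.86 on GH arrays and 0.87 on GC arrays. Each rests on 2 arrays per organ and code. By the interaction term of limma neither difference passed (unadjusted p = 0.114 for CLE41 and 0.0371 for ATHSP22.0, adjusted p = 0.932 for both).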

How the results depend on the processing

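Over 21 alternatives no named gene's called direction turned. Of the 30 genes of the largest changes 28 were called in every one, and the exceptions were BGLU45 (log2 fold change -2.52, adjusted p = 0.123) and AT1G33700 (-3.14, 0.0652) on the GH arrays alone. Of 152 called named genes 116 were called in every alternative, and 110 of 3181 values fell short. The count of 6421 called probe sets was 4257 with the GC arrays alone (2488 higher in flower) and 2976 with the GH arrays alone (1788 higher, 1188 lower), fits on fewer arrays, and 5368 to 6519 without each array in turn (3337 to 4000 higher, 2031 to 2519 lower). The calls in the lists were 166, 96 with the GH arrays alone and 146 to 168 without each array, and the GH arrays alone gave 2 plastid genes lower instead of 25 and 0 serine carboxypeptidase-like genes lower instead of 3. The difference between the codes gave 4 calls without the mean-variance trend, and 0 to 210 without each array, the highest without stem GH 2, and the cause was not tested. The count with a replicate block was 6356 (3970 higher), and the deviations of same-numbered arrays correlated by -0.066 to 0.070, so the numbers were not taken to pair the arrays. The 3' over 5' covariate gave 7202 (4548 higher, 2654 lower). The mean log2 3' over 5' ratio of stem was 0.10 without stem GH 1, against 0.61 with it. A fold is given as a bound only where an organ was dim on every array. Where an organ was dim on some arrays, as for EXLA3, XTH18 and THI2.1, the fitted fold includes signals under the limit and its size is less certain. With 4 arrays per organ a gene that did not pass is not shown to be equal.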

Other observations

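Further families were picked after their values were seen, so their counts are a description. Genes of the lists above can count here again, so these counts are not separate evidence. They stand beside 25.5% of all probe sets higher and 15.4% lower in flower. All 8 measured genes of histones and HMG-box proteins were higher in flower, with a median log2 fold change of 1.57, or 1.02 with dim genes at their bound. HTB2, a histone H2B, had 379, 366, 407 and 465 in flower, against 60.9, 46.7, 81.8 and 86.6 in stem (2.59 ± 0.24, adjusted p = 1.00e-05). The mitosis-linked chromosomal protein gene 3xHMG-box2 had 324, 298, 469 and 381 in flower, against 108, 61.1, 64.6 and 63.7 in stem (2.33 ± 0.21, adjusted p = 1.00e-05). No flower array of these genes overlapped with stem. Among 12 tubulins and SPIRAL1-like proteins of cortical microtubules, 8 were lower in flower and 2 higher, with a median of -0.74. TUB6 had 398, 421, 488 and 359.6 in flower, against 1366, 1435, 1780.1 and 1292 in stem (-1.81 ± 0.16, adjusted p = 7.04e-06), TUA6 had -0.68 ± 0.12 and SP1L5 -2.09 ± 0.24.

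Of 6 measured subtilases, proteases of the cell wall space, 4 were higher in flower, with SBT1.3 at 978, 1007, 903 and 980.5 in flower, against 119, 70.5, 104 and 112 in stem (3.28 ± 0.18, adjusted p = 1.60e-07), and 2 were lower, with ATSBT5.2 at -2.30 ± 0.25. Of 8 cellulose synthase-like genes, CSLC04, a xyloglucan backbone synthase, was lower with 192, 275, 422 and 316 in flower, against 996, 1203, 1434 and 968 in stem (-1.97 ± 0.24, adjusted p = 7.98e-05), and the mannan synthase-family gene CSLA01 was dim on every stem array and at least 6.52-fold higher (adjusted p = 0.000605). In all 3 of that family were lower, 1 without flower GC 1. Of 13 measured beta-glucosidases 2 were higher and 5 lower, and BGLU46, a near relative of BGLU45, had 12.8, 28.7, 19.7 and 12.7 in flower, against 132, 259, 167 and 91.3 in stem (-3.11 ± 0.35, adjusted p = 4.09e-05). Of 17 measured UDP-glycosyltransferases 7 were higher and 3 lower, and UGT87A2 was dim on every stem array and at least 1.88-fold higher (adjusted p = 0.000441). UGT76C1 was dim on every flower array and at least 1.16-fold lower (adjusted p = 0.00105), a call lost with all signals floored at the dim limit (0.178) and with the GH arrays alone (0.0515). Of 12 measured IQ-domain proteins 3 were higher, near the 25.5% of all probe sets, and 1, IQD28, lower (-1.85 ± 0.18, adjusted p = 1.19e-05). Of 18 measured probe sets of mitochondrial genes 1 was lower and none higher, and over the alternatives 0 to 4 were lower, with 4 under quantile normalization and 0 under the replicate block and on the 8 arrays alone.

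Single genes with a symbol and a large change were OCT1, an organic cation transporter, with 175, 168, 169 and 175 in flower, against 1.62, 1.45, 1.07 and 1.097 in stem, at least 6.11-fold higher (adjusted p = 1.29e-05), and RR16, a response regulator of cytokinin signalling, with 188, 161, 179 and 137 in flower, against 6.19, 0.845, 3.78 and 14.3 in stem, at least 5.87-fold higher (adjusted p = 4.86e-05). The cytochrome P450 gene CYP71B31 had 134, 133, 506 and 315 in flower, against 0.775, 1.23, 2.26 and 9.33 in stem, at least 8.21-fold higher (adjusted p = 3.63e-05), with both flower GH arrays above both flower GC arrays. For all 3 the stem arrays were dim.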
